A study of Mus musculus with 6 samples.

Results

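Transcripts of 10 genes that glucocorticoid hormones are known to induce were measured by RNA sequencing of the adult mouse optic nerve. Fkbp5, Sgk1, Tsc22d3, Zbtb16, Pdk4, Sult1a1, Errfi1, Klf9, Nfkbia and Plin4 were taken by symbol, and all 10 were found among the 24062 genes counted. The nerves came from mice older than 2 months at the time of tamoxifen and were collected 1 month after it. The 3 mutant libraries were PlpCreERT2;Nf1flox/flox, in which tamoxifen activates a Cre recombinase expressed in oligodendrocytes, so that both floxed copies of Nf1, a negative regulator of Ras, can be removed from oligodendrocytes. Control library 1 was Nf1flox/flox and control libraries 2 and 3 were Nf1flox/+, all 3 without the Cre by their genotype labels. No group without tamoxifen or with a measured or altered hormone level is among these libraries, and the labels give no time of day of collection. Whether each library is 1 animal is not said in the labels, and the p-values therefore reflect library-to-library spread, part of which may be technical.

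Glucocorticoids, corticosterone in the mouse, are released by the adrenal gland in a daily rhythm and under stress. They enter cells and bind the glucocorticoid receptor (Nr3c1), which is held ready for the hormone by Hsp90 and its co-chaperones, and the loaded receptor moves to the nucleus and binds DNA at a palindromic element or at single copies of one of its arms. Astrocytes, oligodendrocytes and vessel cells of white matter all carry the receptor, and the genes followed here are among those that commonly respond. Several of them also answer to other signals, Nfkbia to NF-kB, Errfi1 to growth factor receptors, Klf9 to thyroid hormone and Pdk4 and Plin4 to fasting and fatty acids.

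The libraries held 13555756 to 23662698 counts. Transcripts of the tissue were present in all 6, with the 11 myelin and oligodendrocyte markers summing to 26450 to 27470 CPM in controls (CPM are counts scaled to library size). The same sum was 5608, 34530 and 4862 CPM in mutant libraries 1, 2 and 3, so mutant library 2 stood apart from mutant libraries 1 and 3. Markers of striatal projection neurons, a forebrain cell type, were higher in the mutants. By edgeR (adjusted p under 0.05) 10 of 10 were called, beside 3.29% of all genes. Their sums were 155.1 to 214.6 CPM in controls and 1710 to 2576 CPM in mutants. Nf1 itself had 394, 400 and 336 CPM in the controls and 303, 226 and 432 CPM in the mutants, and a count that spans every exon says nothing about the floxed part. Xist, the RNA of the inactive X chromosome, was high in control library 2 and all 3 mutants (30602 to 72727 counts) and low in control libraries 1 and 3 (58 and 34 counts). The sex that this marks is therefore mixed in the controls and of 1 kind in the mutants. A lower level of a transcript in these whole-nerve libraries cannot be told apart from fewer cells that carry it.

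The DNA just before the start of each gene was searched for letters that the receptor is known to bind. RefSeq windows on GRCm38.p6, the mm10 build of the counts, were matched for 9 of the 10 genes, 17 windows in all because some genes have several starts. Zbtb16 was not matched. In the 250 bases before each start, both strands were searched for the receptor's palindrome GNACANNNTGTNC and for the hexamer AGAACA that forms its arms, and the 2 can overlap. The palindrome was in 0.387% of all 32851 windows and in 1 of the 17 member windows, at the fifth of 6 Sgk1 starts. The hexamer was in 16.1% of all windows and in 5 of the 17, which belong to 3 genes, Sgk1, Tsc22d3 and Sult1a1. Shown 5′ to 3′ are the Sgk1 window with the palindrome (chr10:21993640-21993889, plus strand), the hexamer windows of Tsc22d3 (chrX:140600523-140600772, minus strand) and Sult1a1 (chr7:126676419-126676668, minus strand), and for contrast that of Plin4 (chr17:56109783-56110032, minus strand), the member with the lowest fitted fold change, which has neither motif. Capitals mark the matches.
Sgk1: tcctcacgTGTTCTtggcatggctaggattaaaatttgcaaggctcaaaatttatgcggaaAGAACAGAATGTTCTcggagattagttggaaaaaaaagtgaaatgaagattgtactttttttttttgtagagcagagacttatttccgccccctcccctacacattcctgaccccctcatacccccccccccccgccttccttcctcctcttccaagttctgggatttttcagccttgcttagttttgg
Tsc22d3: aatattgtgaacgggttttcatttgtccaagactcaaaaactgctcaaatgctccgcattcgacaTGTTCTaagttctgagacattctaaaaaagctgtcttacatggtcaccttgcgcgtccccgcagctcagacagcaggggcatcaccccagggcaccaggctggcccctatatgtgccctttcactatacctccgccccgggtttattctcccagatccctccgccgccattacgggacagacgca
Sult1a1: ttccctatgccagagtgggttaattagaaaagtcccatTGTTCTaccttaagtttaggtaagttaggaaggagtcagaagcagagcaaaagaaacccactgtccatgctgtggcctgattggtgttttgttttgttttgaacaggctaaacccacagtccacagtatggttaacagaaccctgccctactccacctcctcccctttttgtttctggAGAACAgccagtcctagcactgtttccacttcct
Plin4: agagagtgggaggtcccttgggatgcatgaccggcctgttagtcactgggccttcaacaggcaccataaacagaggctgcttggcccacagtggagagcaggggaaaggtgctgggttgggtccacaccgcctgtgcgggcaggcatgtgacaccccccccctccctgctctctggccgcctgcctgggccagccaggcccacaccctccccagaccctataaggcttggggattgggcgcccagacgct
In the Sgk1 window the palindrome reads GAACAGAATGTTC and runs from 188 to 176 bases before the start, flanked on both sides so that 2 complete hexamers face each other. A further hexamer lies at bases 242 to 237 before that start. These are matches of letters only, and binding was not measured here. DNA outside the 250 bases before each start was not searched. A link between these letters and the library orders given further on was not tested.

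No member passed the test between mutant and control. By edgeR's quasi-likelihood test with Benjamini-Hochberg adjustment over the 16315 genes tested, 0 of the 10 had an adjusted p under 0.05, where 3.29% of all genes did. DESeq2 and limma-voom also called 0 of the 10, beside 10.1% and 3.10% of all genes. At an unadjusted p under 0.05 edgeR gave 2 of the 10, Sult1a1 and Plin4, beside 19.2% of all genes. The median log2 fold change was -0.11 over the members and -0.0017 over all genes, and 5 of the 10 values were negative. The lowest fitted values were those of Plin4, Sult1a1 and Errfi1, between -1.33 and -0.70, and the other 7 lay between -0.26 and 0.43. Errfi1, at -0.70 (SE 0.35), and the next gene, Sgk1, at -0.26 (SE 0.57), overlapped within their standard errors, and no test compared the genes with each other.

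**Figure D1:**
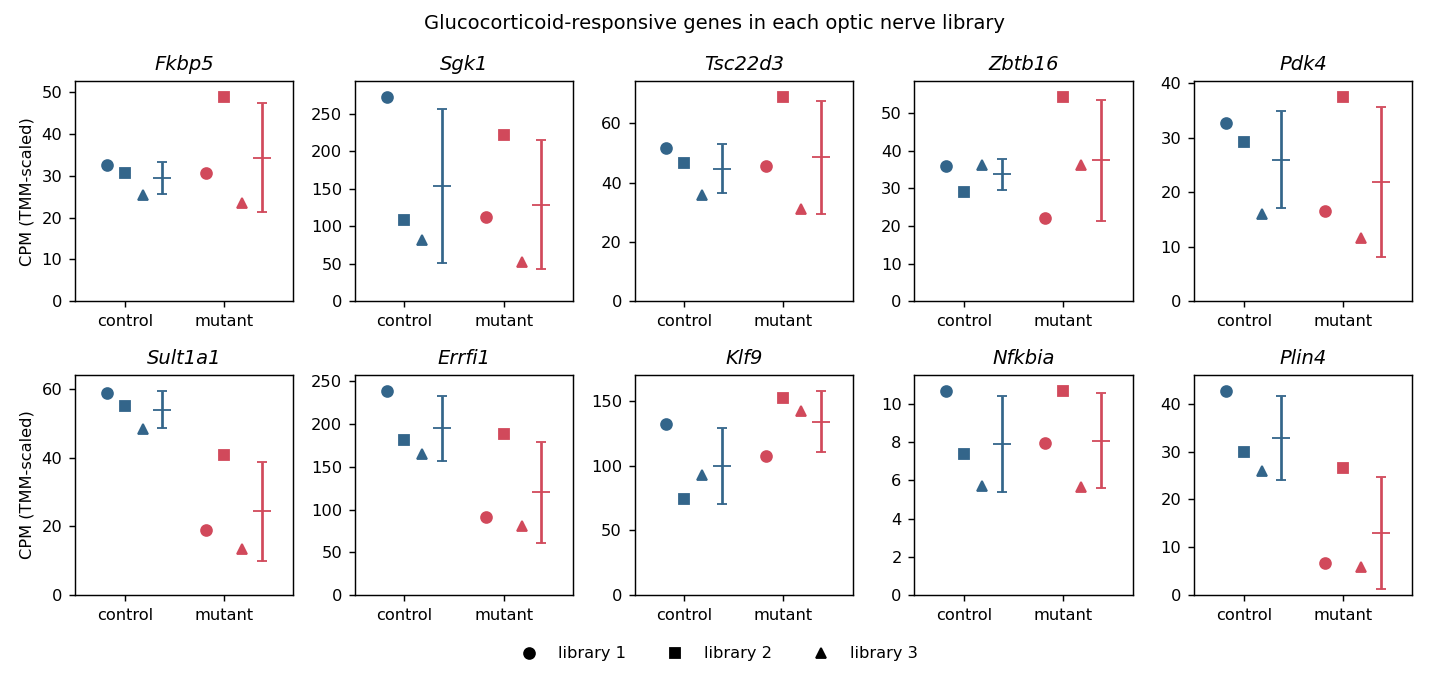
TMM-scaled CPM (y axes, from 0) of the 10 genes in the 3 control (blue) and 3 mutant (red) libraries, with the mean and SD of each group as a dash and bar beside the points and a marker shape for each library number. Mutant library 2 is the highest of the mutants in all 10 panels (38.9% of all genes tested). Sult1a1 is the 1 gene whose groups do not overlap, with all mutants below all controls (11.5% of all genes tested).

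The co-chaperone gene Fkbp5 (chromosome 17, 28398753 to 28486149), whose product binds Hsp90 and lowers the receptor's affinity for hormone, is a widely used readout of the receptor. It had 32.7, 30.6 and 25.4 CPM in control libraries 1, 2 and 3 and 30.8, 48.8 and 23.6 CPM in mutant libraries 1, 2 and 3. Mutant library 2 was the highest of the 6 and mutant library 3 the lowest, with mutant library 1 among the controls. The means were 29.6 ± 3.78 and 34.4 ± 13.0 CPM (SD, n = 3 each), a log2 fold change of 0.22 (edgeR, SE 0.30, adjusted p 0.739).

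Tsc22d3 (chromosome X, 140539529 to 140600522) encodes GILZ, a leucine zipper protein that carries part of the anti-inflammatory action of glucocorticoids. Its levels were 51.8, 46.7 and 35.7 CPM in the controls and 45.7, 68.8 and 31.0 CPM in the mutants, in library order. The arrangement was that of Fkbp5, with mutant library 2 on top and mutant library 3 at the bottom, and the log2 fold change was 0.12 (edgeR, SE 0.31, adjusted p 0.877). Nfkbia (chromosome 12, 55489409 to 55492647), the gene of the inhibitor IkBα that holds NF-kB in the cytoplasm, had the lowest control level of the members per kilobase of exon, with 10.6, 7.38 and 5.68 CPM in controls and 7.93, 10.7 and 5.65 CPM in mutants. Its groups covered the same range, and its log2 fold change of 0.032 (edgeR, SE 0.38, adjusted p 0.977) turned to -0.038 with upper quartile scaling. Exons of Nfkbia share 15 bases with Mir1198, which counting without strand cannot separate.

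Sgk1 (chromosome 10, 21882184 to 21999902), a kinase gene that regulates ion channels and transporters and is induced within minutes to hours by glucocorticoids, was the most variable member among controls. Control library 1 had 272 CPM, against 109 and 81.5 CPM in control libraries 2 and 3. The mutants, in library order, held 113, 222 and 52.7 CPM. The highest control was thus 3.34 times the lowest and the highest mutant 4.21 times the lowest, so the spread within each group was larger than the distance between the means of 154 ± 103 and 129 ± 85.7 CPM (SD, n = 3 each). Its fitted log2 fold change was -0.26 (edgeR, SE 0.57, adjusted p 0.845), and it was 0.45 without control library 1 and -0.89 without mutant library 2, neither with an adjusted p under 0.05.

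Errfi1 (chromosome 4, 150855091 to 150868880) encodes Mig-6, an inhibitor of the EGF receptor family that sits upstream of Ras. It had 239, 181 and 166 CPM in controls, 188 CPM in mutant library 2, and 91.5 and 80.4 CPM in mutant libraries 1 and 3. Mutant libraries 1 and 3 were therefore below every control, while mutant library 2 was within the control range. The log2 fold change was -0.70 (edgeR, SE 0.35, adjusted p 0.311). It stood at -1.18 without mutant library 2 (edgeR, SE 0.22, adjusted p 0.00307), a fit that called 27.0% of all genes. Without mutant library 3 it was -0.48 (edgeR adjusted p 0.570).

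Of the 2 transcription factor genes, Klf9 (chromosome 19, 23141226 to 23166911), encodes a Krüppel-like factor that takes part in oligodendrocyte differentiation and myelin regeneration, and had 132, 74.3 and 92.7 CPM in controls and 107, 153 and 142 CPM in mutants. Mutant libraries 2 and 3 were above every control, and mutant library 1 lay below control library 1. Its log2 fold change of 0.43 (edgeR, SE 0.27, adjusted p 0.432) was the largest positive value of the 10 and stayed positive, from 0.26 to 0.81, in all 14 alternative fits. Zbtb16 (chromosome 9, 48654297 to 48835945), which encodes the zinc finger repressor PLZF, had 35.9, 29.1 and 36.1 CPM in controls and 22.2, 54.1 and 36.1 CPM in mutants. Its mutant values spread on both sides of the controls, and the log2 fold change was 0.15 (edgeR, SE 0.33, adjusted p 0.840).

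Pdk4 (chromosome 6, 5483351 to 5496278) encodes a mitochondrial kinase that shuts off pyruvate dehydrogenase and so spares glucose. It had 32.7, 29.3 and 16.0 CPM in controls and 16.6, 37.5 and 11.6 CPM in mutants. Mutant library 2 was above and mutant library 3 below all controls. Pdk4 is abundant in muscle, and the 7 skeletal muscle markers summed to 2.65 to 5.79 CPM in controls and 2.51 to 4.91 CPM in mutants. Per library there were 9 to 44 counts of Mylpf, 6 to 36 of Acta1 and 0 to 18 of Ckm. The part of muscle in the Pdk4 level was not tested. The log2 fold change was -0.25 (edgeR, SE 0.45, adjusted p 0.809), and -0.87 without mutant library 2 (edgeR adjusted p 0.0858).

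Sult1a1 (chromosome 7, 126672870 to 126676357), the gene of a sulfotransferase that conjugates phenols and catecholamines, was the 1 member whose groups did not overlap. Controls had 58.8, 55.1 and 48.3 CPM and mutants had 19.0, 40.8 and 13.3 CPM. Every mutant library lay below every control, as in 11.5% of all genes tested. The control mean of 54.1 ± 5.37 CPM was 2.22-fold the mutant mean of 24.4 ± 14.5 CPM (SD, n = 3 each). On the log2 scale the fitted difference was -1.15, with SE 0.39 and adjusted p 0.154 by edgeR. DESeq2 gave an adjusted p of 0.0528 and limma-voom 0.0744. Without mutant library 2 the value was -1.73 (edgeR, SE 0.26, adjusted p 0.000653), in a fit that called 27.0% of all genes. It was -0.86 without mutant library 3 (edgeR adjusted p 0.312).

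Plin4 (chromosome 17, 56100591 to 56109802) encodes perilipin 4, a coat protein of lipid droplets. Its controls had 42.7, 30.0 and 25.9 CPM, mutant library 2 had 26.6 CPM, and the levels of mutant libraries 1 and 3 were 6.79 and 5.86 CPM. Mutant library 2 thus stood just above the lowest control, and mutant libraries 1 and 3 stood at 0.207 and 0.178 of the control mean. The log2 fold change was -1.33 (edgeR, SE 0.55, adjusted p 0.235). It was -2.37 (edgeR, SE 0.31, adjusted p 0.000324) without mutant library 2, where 27.0% of all genes were called. Without mutant library 3 it was -0.98 (edgeR adjusted p 0.444). Of the fat cell transcripts, Plin1 had 0 to 4 counts, Adipoq 0 to 1 count and Lpl 138 to 467 counts per library. The 7 fat cell markers summed to 8.99 to 10.98 CPM in controls and 9.62 to 25.8 CPM in mutants, nearly all of it Lpl. The part of fat cells in the Plin4 level was not tested. Exons of Plin4 share 6 bases with Hdgfrp2.

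**Figure D2:**
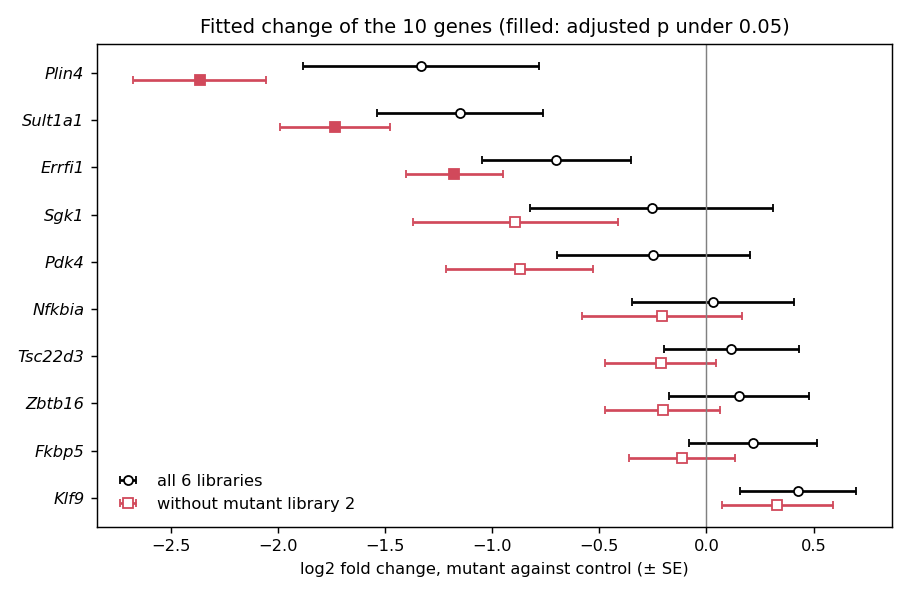
Log2 fold change of mutant against control (x axis) with its standard error for the 10 genes (y axis), fitted with all 6 libraries (black circles) and without mutant library 2 (red squares). Filled symbols, which occur only for Plin4, Sult1a1 and Errfi1 without mutant library 2, have an edgeR adjusted p under 0.05.

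With all 6 libraries edgeR called 0 of the 10 members and 3.29% of all genes. Both shares depended on mutant library 2. Without it, edgeR called 3 of the 10 lower, Sult1a1, Plin4 and Errfi1, and 0 higher. In that fit 27.0% of all genes tested were called, 13.8% lower and 13.2% higher. The median of the members was then -0.54 with 9 of 10 values negative, against -0.0054 over all genes, and 3 of 10 had both remaining mutant libraries below every control, beside 27.0% of all genes. Leaving out any of the other 5 libraries gave 0 calls among the members, in fits that called 51 to 199 of 16583 to 16788 genes. The low levels of these 3 genes in mutant libraries 1 and 3 came with low sums of the myelin markers (5608 and 4862 CPM, controls at least 26450) and also of the 7 fibroblast markers (251.6 and 297.7 CPM, controls at least 1161) and the 8 endothelial markers (178.6 and 236 CPM, controls at least 459.1). In mutant library 2 the same sums were 34530, 774.5 and 392.9 CPM. Sums of the 7 pericyte markers were 105.9, 209.8 and 96.9 CPM in mutant libraries 1, 2 and 3 (controls at least 263.2). Those of the 8 microglia markers were 364.6, 686.6 and 264.7 CPM (controls at least 491.4). The 11 neuron markers moved the other way, with 6315, 1782 and 4402 CPM in mutant libraries 1, 2 and 3 and at most 1082 CPM in controls. The 8 astrocyte markers summed to 6371, 6406 and 5463 CPM (controls at most 5361). Of the myelin, fibroblast, pericyte, microglia and astrocyte markers edgeR called 0 with all 6 libraries. It called 1 of the 8 endothelial (lower) and 5 of the 11 neuron markers (higher), beside 3.29% of all genes. No marker of these lists was at 0 in every library. The part of these markers in the levels of the 3 genes was not tested.

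The members shared an arrangement of libraries within each group, which was noticed after their values were seen. Mutant library 2 was the highest of the mutants for 10 of 10 genes, where this held for 38.9% of all genes tested. Among controls, library 1 was the highest for 9 of 10 (35.9% of all genes), and library 3 was the lowest for 8 of 10 (36.2% of all genes). Fkbp5, Sgk1, Tsc22d3, Pdk4, Sult1a1, Errfi1, Nfkbia and Plin4 had the order control 1, 2, 3 and mutant 2, 1, 3 from high to low, both at once, an arrangement found in 3.82% of all genes. The 2 exceptions were the transcription factor genes Klf9 and Zbtb16. In the wider response list described further on, Per1, Dusp1, Zfp36, Arrdc2 and Pnpla2 had both orders, and the other tested genes of that list did not. Of the genes of the receptor and its machinery, only Nr3c1 had both orders. As the mean over the 10 genes of log2(CPM + 0.5) relative to the control mean, control libraries 1, 2 and 3 stood at 0.36, -0.07 and -0.29 and mutant libraries 1, 2 and 3 at -0.58, 0.37 and -0.86. The medians over the 10 genes were 0.35 in control library 1 and 0.61 in mutant library 2, which was above control library 1 for 6 of the 10. The share of counts from the ribosomal RNA precursor Rn45s had the same order as the 8 genes, with 10.9%, 5.06% and 3.53% in control libraries 1, 2 and 3 and 8.21%, 4.97% and 1.73% in mutant libraries 2, 1 and 3. In the controls, 3 of the 10 summed marker lists followed the order of the members. These were fibroblasts (1292, 1190 and 1161 CPM), endothelial cells (545.1, 506.1 and 459.1 CPM) and skeletal muscle (5.79, 4.23 and 2.65 CPM). In the mutants, those of myelin, astrocytes, microglia and pericytes followed it. The order of a sum was not that of each gene in it. In mutant libraries 2, 1 and 3 the astrocyte sums were 6406, 6371 and 5463 CPM. Of the astrocyte genes, Slc1a2 (3211, 4768 and 3980 CPM) did not follow and Gfap (1199, 281 and 223 CPM) did. Of the pericyte genes, Rgs5 (54.7, 39.6 and 45.2 CPM) did not and Pdgfrb (55.2, 18.9 and 14.4 CPM) did. None of the 10 lists followed both orders, and the myelin sums of control libraries 1, 2 and 3 were 26850, 27470 and 26450 CPM. The part of ribosomal RNA and of these cell types in the arrangement was not tested. No test was made of these orders, which are read from 3 libraries each.

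**Figure D3:**
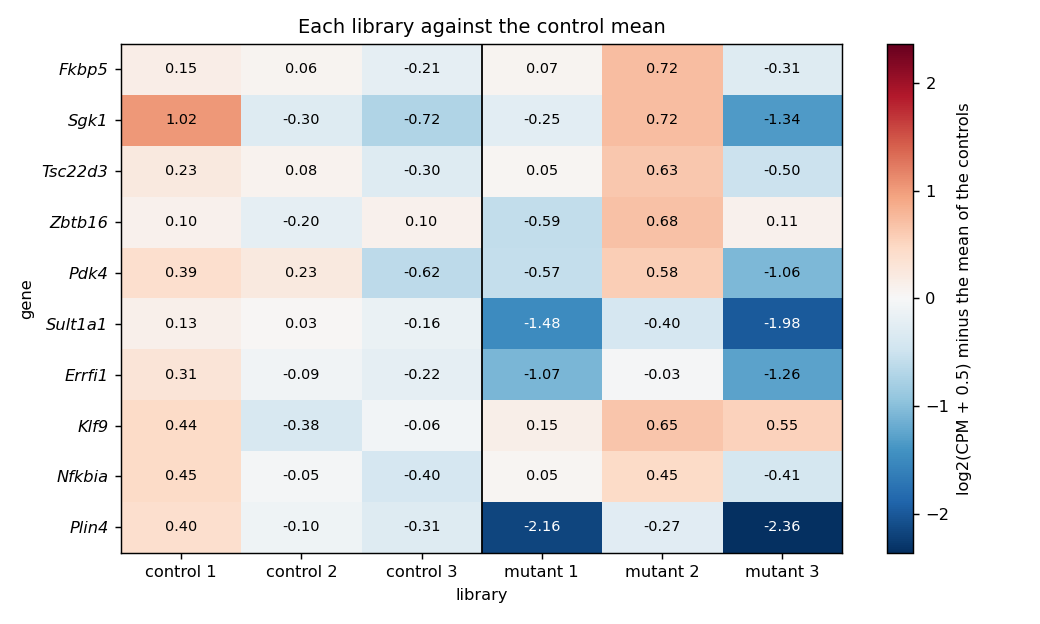
Level of the 10 genes (rows) in the 6 libraries (columns) as log2(CPM + 0.5) minus the mean of the controls, with red above and blue below that mean and the value printed in each cell. The column of mutant library 2 is above 0 for 7 genes and that of mutant library 3 below 0 for 8, and the deepest values are those of Plin4 and Sult1a1 in mutant libraries 1 and 3.

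Compared per kilobase of exon, the members covered a wide range of levels in the control nerve. Errfi1 was the highest at 64.7 ± 12.8 CPM per kilobase, followed by Sult1a1 at 39.5 ± 3.92, Sgk1 at 37.1 ± 24.8 and Klf9 at 30.6 ± 9.03 (SD, n = 3 each). The last 3 did not differ beyond their spread. Tsc22d3 had 18.0 ± 3.31 CPM per kilobase. The remaining 5 genes were close together, with 7.61 ± 0.972 for Fkbp5, 7.53 ± 2.57 for Pdk4, 6.59 ± 0.787 for Zbtb16, 5.71 ± 1.52 for Plin4 and 5.00 ± 1.60 for Nfkbia, and neighbors among them did not differ beyond their spread. In the mutants Klf9, at 41.1 ± 7.26, and Errfi1, at 39.8 ± 19.7 CPM per kilobase, were the 2 highest, and Plin4 was the lowest at 2.27 ± 2.03. The coefficient of variation was larger in mutants than in controls for 7 of the 10, beside 74.8% of all genes.

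Genes whose profile over the 6 libraries was closest were sought for the 3 members with the smallest p, by the root mean square difference of log2(CPM + 0.5) after centering each gene on its mean. For Sult1a1 these were Tcn2, a transport protein for vitamin B12, with a difference of 0.06, C030029H02Rik (0.08) and Cpt2, an enzyme of mitochondrial fatty acid import (0.10). For Plin4 they were Moxd1 (0.06), the endothelial gene Vwf (0.11) and 1700047M11Rik (0.12). For Errfi1 they were Rnf181 (0.03), the sphingosine phosphate receptor gene S1pr2 (0.04) and the adrenergic receptor gene Adra2a (0.09). Vwf, a defining marker of vessels, had 127.9, 92.9 and 81.1 CPM in controls and 19.1, 78.8 and 21.5 CPM in mutants. Its low libraries are those of Plin4, as its choice by profile fixed in advance. Among other endothelial markers, Flt1 was low in mutant libraries 1 and 3 (50.0 and 50.6 CPM, controls 95.9 to 111). Slco1a4 was low in mutant library 1 (50.6 CPM) but not in mutant library 3 (103 CPM, controls 87.9 to 140). A link of Plin4 to vessels was not tested.

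Of the receptor and its machinery, 20 genes were looked at and 19 had enough counts to be tested. None of the 19 passed by edgeR, DESeq2 or limma-voom, which called 3.29%, 10.1% and 3.10% of all genes. At an unadjusted edgeR p under 0.05 there were 2, beside 19.2% of all genes. The median log2 fold change was 0.22 against -0.0017 over all genes. The receptor gene Nr3c1 had 229, 185 and 173 CPM in controls and 139, 169 and 124 CPM in mutants. All its mutant libraries were below all controls, by a margin that was small beside the spread of the controls (log2 fold change -0.44, edgeR, SE 0.23, adjusted p 0.339). Nr3c2, the mineralocorticoid receptor gene, which binds the same hormone, had overlapping groups and a log2 fold change of 0.09 (SE 0.26).

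Among the genes that set the supply of hormone, Abcb1a, the drug efflux pump of the blood-brain barrier that also exports steroids, had 106.5, 98.6 and 66.6 CPM in controls and 27.4, 61.5 and 58.6 CPM in mutants (a value of -0.88, edgeR, SE 0.34, adjusted p 0.202). It was the 1 of 19 genes of this list called without mutant library 2 (-1.07, edgeR adjusted p 0.0363), where 27.0% of all genes were called and 13.8% of all genes were called lower. H6pd, which supplies the cofactor to the hormone-activating enzyme of the endoplasmic reticulum, was also lower in each mutant library than in any control, at -0.72 (edgeR, SE 0.29, adjusted p 0.224). That enzyme's own gene, Hsd11b1, had 3.02, 1.95 and 4.73 CPM in controls and 8.52, 5.81 and 3.42 CPM in mutants, with overlapping groups and a value of 0.87 (edgeR, SE 0.49, adjusted p 0.376). The co-chaperone gene Dnajb1 stood at 0.74 (SE 0.35) and the coactivator gene Ncoa1 at 0.39 (SE 0.22), neither with an adjusted p under 0.05. In the list 4 genes had all mutant libraries below all controls and 2 had them above, beside 11.5% and 12.5% of all genes tested.

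A further 26 genes with a known glucocorticoid response were examined, of which 25 could be tested. Tat, the liver enzyme tyrosine aminotransferase, was too low. By edgeR 0 of the 25 passed, beside 3.29% of all genes. At an unadjusted edgeR p under 0.05 there were 3, beside 19.2% of all genes, and the median log2 fold change was -0.17. DESeq2 called 2 of the 25, Cdkn1c and Mertk, where it called 10.1% of all genes, and limma-voom called 0, beside 3.10% of all genes. Mertk, a receptor by which glia and macrophages take up debris, had 33.0, 36.4 and 44.5 CPM in controls and 59.6, 62.3 and 62.1 CPM in mutants, so all its mutant libraries were higher (log2 difference 0.69, edgeR, SE 0.22, adjusted p 0.128, DESeq2 adjusted p 0.0386). Cdkn1c, a cell cycle inhibitor gene, had 17.4, 19.9 and 31.3 CPM in controls and 5.45, 15.3 and 5.30 CPM in mutants, all of them lower (log2 difference -1.40, edgeR, SE 0.46, adjusted p 0.143, DESeq2 adjusted p 0.0359). Fam107a, an actin-binding stress response gene, was higher in each mutant library, with 166.2 to 188.1 CPM in controls and 230.8 to 296 CPM in mutants (0.62, edgeR, SE 0.22, adjusted p 0.173). Of the 25 genes, 1 had all mutant libraries below all controls and 2 had them above, beside 11.5% and 12.5% of all genes tested.

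More genes of this wider list passed once mutant library 2 was left out. Without mutant library 2, edgeR called 9 of the 25, 7 lower and 2 higher, where 13.8% and 13.2% of all genes were called. The lower ones were Cdkn1c at -2.08, the triglyceride lipase gene Pnpla2 at -1.83, the RNA-binding protein gene Zfp36 at -1.77, the metallothionein gene Mt2 at -1.60, Arrdc2 at -1.19, Arrdc3 at -1.03 and Klf15 at -0.92, and the higher ones were Fam107a at 0.71 and Mertk at 0.69. With all 6 libraries Pnpla2 had -0.97 (edgeR, SE 0.50, adjusted p 0.335), Arrdc3 -0.58 (edgeR, SE 0.33, adjusted p 0.384) and Nedd9 -0.37 (edgeR, SE 0.28, adjusted p 0.501). Mt2 showed how far 1 library could lie from its group, with 60.9, 321.9 and 50.5 CPM in mutant libraries 1, 2 and 3 and 135 to 205 CPM in controls. The clock gene Per1, which glucocorticoids induce directly, had 58.3, 48.5 and 42.2 CPM in controls and 67.9, 71.4 and 41.1 CPM in mutants.

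**Figure D4:**
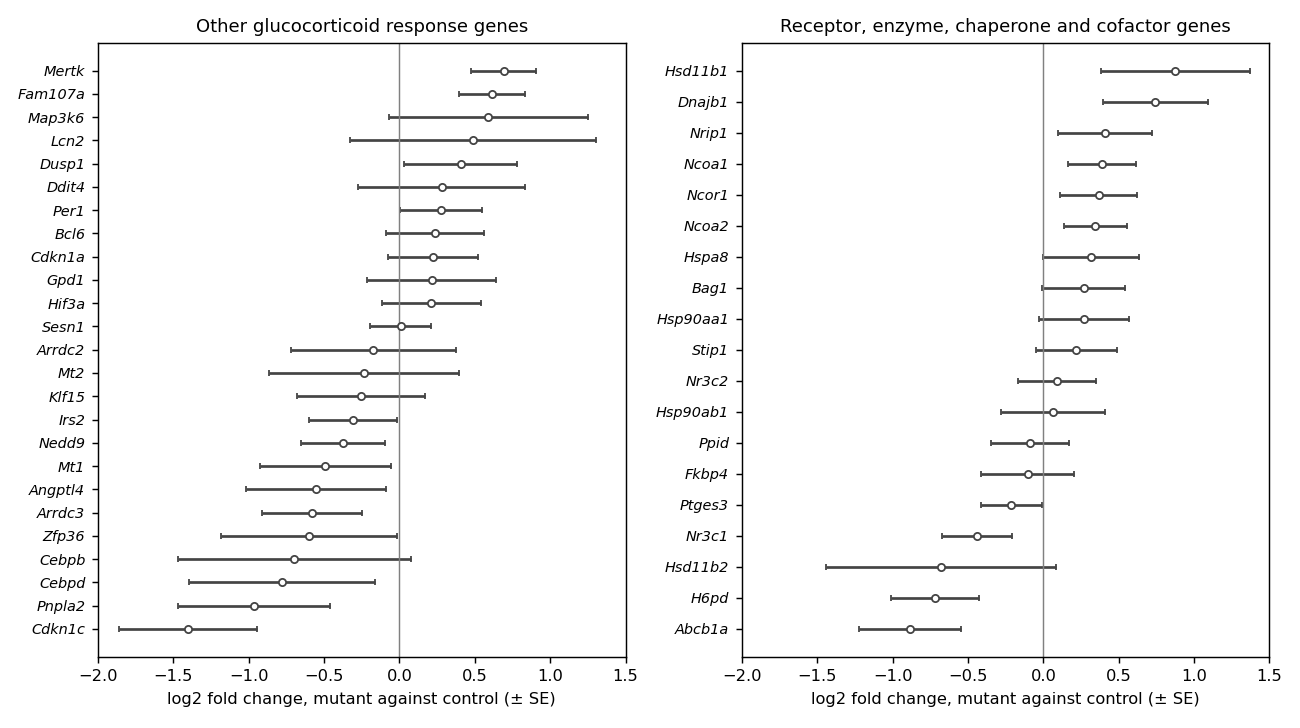
Log2 fold change of mutant against control (x axes) with its standard error for the 25 tested genes of the wider glucocorticoid response (left) and the 19 tested genes of the receptor, its enzymes, chaperones and cofactors (right), with all 6 libraries. Open circles mark that none had an edgeR adjusted p under 0.05, and Cdkn1c at the bottom left, at -1.40, is the farthest from 0.

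With Xist, as log2 CPM, added to the model, edgeR called 0 of the 16315 genes, with 1299 at an unadjusted p under 0.05, and 0 of the 10 members, with 0 at that unadjusted p. Fitted values of Sult1a1 and Plin4 were then -1.15 (SE 0.54) and -1.20 (SE 0.75), and that of Sgk1 was 0.21 (SE 0.81). Control library 2, the 1 control with high Xist, held 55.1 CPM of Sult1a1 and 30.0 CPM of Plin4, between the other 2 controls for both genes.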

How the data were processed

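Per the labels' protocols, optic nerve RNA was amplified (Ovation RNA-Seq System v2) before Nextera XT library preparation. The authors deposited unnormalized counts of fragments per gene, which featureCounts 1.4.6-p4 made over UCSC mm10 exons ignoring strand, per the file headers. The submitters' processing notes also name TopHat. Any 2 libraries differed beyond sampling noise (chi-square per degree of freedom at least 45.6). Mutant library 2 had values of 59.5 to 63.8 with the controls, and 181 and 203 with mutant libraries 1 and 3. Pairs of controls had 45.6 to 115, and mutant libraries 1 and 3 had 69.7. Library numbers are in accession order.

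Mutant and control libraries, 3 each, were compared over all genes with edgeR 4.0.16 (R 4.3.3), TMM scaling, filterByExpr (minimum count 10), a quasi-likelihood F test without covariates and Benjamini-Hochberg adjustment, threshold 0.05. The SE is the fold change over the square root of F. CPM use TMM-scaled totals. On simulated counts of 16084 genes, the mutant against control test recovered 68.2%, 11.1% and 1.52% of genes changed 4-, 2- and 1.5-fold. Alternatives were other scalings, filters of 20 or none, DESeq2 1.42.0, limma-voom (limma 3.58.1), Xist as a covariate, and each library left out in turn. Members and lists were chosen with earlier results of these data known. Named were all members, up to 6 genes per wider list (called first, then by p) and the nearest profiles. Per1, Dusp1, Mt2, Nr3c2, Zfp36, Arrdc2 and Klf15 were added after their values were seen. Ckm, Plin1 and Adipoq were picked outside these rules.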

Additional observations from a re-analysis of the deposited data

How the results depend on the processing

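All 10 members kept their side of the threshold, none called, with limma-voom, DESeq2, its size factors within edgeR, total counts, upper quartile scaling, no filter, a minimum count of 20 and Xist as a covariate. Among these fits the direction turned for Nfkbia (-0.038 with upper quartile scaling) and Sgk1 (0.21 with Xist). Leaving out 1 library at a time, log2 fold changes ranged from -0.11 to 0.43 for Fkbp5, -0.89 to 0.45 for Sgk1, -0.21 to 0.36 for Tsc22d3, -0.20 to 0.42 for Zbtb16, -0.87 to 0.055 for Pdk4, -1.73 to -0.86 for Sult1a1, -1.18 to -0.48 for Errfi1, 0.26 to 0.69 for Klf9, -0.21 to 0.31 for Nfkbia and -2.37 to -0.98 for Plin4. The counts of calls then ranged from 0 to 3 for the members, 0 to 9 for the wider response list and 0 to 1 for the receptor list. For all genes, 537 calls became 51 to 4551 on leaving out 1 library (4551 without mutant library 2), 1645 by DESeq2, 870 without a filter and 0 with Xist, and the wider list had 2 calls by DESeq2. The cause of these shifts was not tested. No paired analysis was possible because the labels give no replicate numbers. At 3 libraries a group, changes of up to 2-fold were seldom recovered in the simulation, so a missed threshold does not show equal levels.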
